A study of Mus musculus with 6 samples.

Results

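Elastic fibre and microfibril genes were followed in the skin of 3 LynDN transgenic mice set against 3 wild-type (WT) mice. The genes were chosen by symbol, from a list of 10 drawn up with the log2 ratios of these same arrays already known: Eln, Fbn1, Fbn2, Fbln1, Fbln2, Fbln5, Mfap2, Mfap4, Mfap5 and Fn1. Of these, 9 carried at least 1 probe with a single gene symbol on the platform, on 10 probes in all, out of 18617 named genes on 25344 probes, and Fbn1 was not analysed here. Their genotype ratios are therefore given as descriptions; counts of calls among them are printed once, and nothing is read from them.

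Each LynDN mouse was paired with 1 WT mouse, and both RNAs went onto 2 dual-channel arrays of opposite dye orientation, for 6 arrays and 3 mouse pairs. Lyn belongs to the Src family of tyrosine kinases, and the title of the series writes the transgene as LynDeltaN. The promoter that drives the transgene, and the age, sex and strain of the mice, are not stated by the labels used. The deposited value is a log ratio per probe and array. Its base is taken as 2, and how the ratios were scaled is not stated; the values of every array average 0.

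The numerator of the ratio is not stated, so signs are printed as deposited. All arrays run one way for the strongest rows: the calcium-binding alarmin S100a9 lay between 4.64 and 6.16 on the 6 arrays, whichever dye carried LynDN RNA. Mice of this kind are known for inflamed, psoriasis-like skin, and alarmins of that condition are on the positive side. LynDN over WT is for that reason the likely reading, in which a negative ratio means less transcript in LynDN skin, and every sign would turn if WT were the numerator. Probes named Lyn numbered 0, so the transgene could not be checked.

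Pair 1 stood apart from the other pairs. Its dye-swapped arrays had a Pearson correlation across rows of 0.0239, whereas pair 2 reached 0.463 and pair 3 reached 0.462. By rank (Spearman) the correlations were -0.18, 0.127 and 0.155 in pairs 1, 2 and 3, so agreement over most rows was low in every pair. The Y-linked gene Eif2s3y had a log2 ratio of 3.50 in pair 1, against -0.0040 and 0.028 in pairs 2 and 3. The 2 mice of pair 1 thus differed in a Y-linked transcript as well as in genotype. Values are given by pair for this reason. A ratio gives no level, so the labelled tissue could not be checked against the presence of its markers.

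Elastic fibres let skin recoil after stretch. Dermal fibroblasts secrete tropoelastin, which is deposited on a scaffold of fibrillin microfibrils and cross-linked there by lysyl oxidases. Fibulins and microfibril-associated glycoproteins join the elastin core to the scaffold, fibronectin fibrils are needed early for the assembly of microfibrils, and microfibrils hold latent TGF-beta in the matrix. Because RNA came from whole skin, fewer cells of a type and less RNA per cell cannot be told apart.

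The 9 genes did not share one direction. Mfap4 had by far the most negative ratio, Fn1 and Eln had smaller negative ratios on all 6 arrays, Fbln1 was positive on all 6 arrays, and Mfap2, Fbln5 and Fbln2 averaged close to 0. The median of the 9 mean log2 ratios was -0.11, beside -0.01 for all 22879 rows. By pair the median of the 9 genes was -0.20, 0.032 and -0.18 in pairs 1, 2 and 3, and without pair 1 the median of their means was -0.064.

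**Figure D1:**
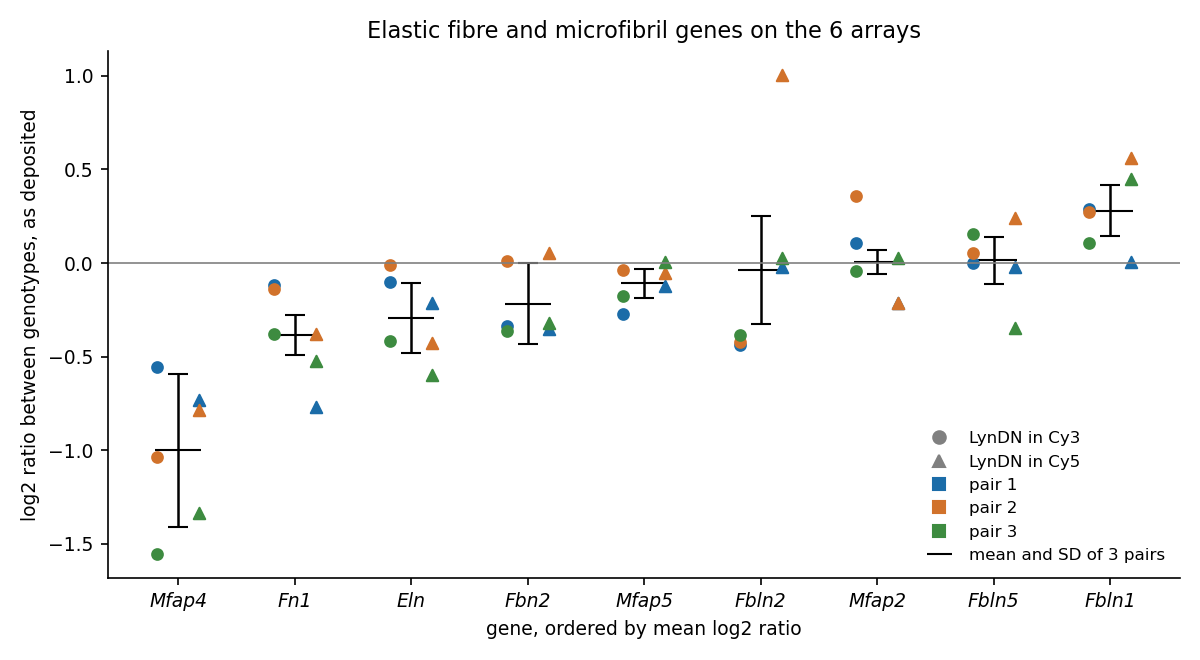
Deposited log2 ratio (vertical axis) of 9 elastic fibre and microfibril genes (horizontal axis) on each of the 6 arrays. Circles are arrays with LynDN in Cy3, triangles those with LynDN in Cy5, colours mark the mouse pair, and black bars give the mean and SD of the 3 pair values; Mfap4 lies below -0.55 on every array, and Fbln2 splits by dye.

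Eln, which encodes tropoelastin, the core protein of the elastic fibre, had log2 ratios of -0.0985, -0.0092 and -0.42 on the arrays of pairs 1, 2 and 3 with LynDN in Cy3. On the arrays with LynDN in Cy5 it had -0.21, -0.43 and -0.60 in the same pairs. All 6 values were negative, those with LynDN in Cy5 were the lower ones in every pair, and 1 array of pair 2 lay next to 0. The mean of the pair values was -0.29 ± 0.19 (SD, n = 3), a 1.23-fold difference, and rank 653 from the lowest of 22879 rows.

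Fbn2 encodes fibrillin-2, a microfibril backbone protein best known from developing tissue, and it was the only fibrillin measured. Its mean log2 ratio was -0.34 in pair 1, 0.032 in pair 2 and -0.34 in pair 3. The difference thus showed in pairs 1 and 3, on all 4 of their arrays, and not in pair 2. Both of its probes carried this pattern: the probe annotated with a RefSeq transcript had -0.40, 0.10 and -0.18 in pairs 1, 2 and 3 with LynDN in Cy3, and -0.26, 0.083 and -0.37 with LynDN in Cy5. The probe annotated with a cDNA clone had -0.27, -0.082 and -0.55 with LynDN in Cy3, and -0.44, 0.025 and -0.27 with LynDN in Cy5. The mean over pairs was -0.22 ± 0.22 (SD, n = 3), and -0.34 without pair 2.

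Of the 3 microfibril-associated genes, Mfap4 differed in size from the others. Mfap4 encodes a fibrinogen-related protein that binds elastin and fibrillin and takes part in elastic fibre assembly. It had -0.55, -1.04 and -1.55 in pairs 1, 2 and 3 with LynDN in Cy3, and -0.73, -0.78 and -1.34 with LynDN in Cy5. Pair 3 was the lowest in both orientations, and no array came near 0. The mean was -0.999 ± 0.41 (SD, n = 3), a 1.999-fold difference, rank 19 from the lowest of 22879 rows. Its SD between pairs was large as well, exceeded by 3.66% of rows, while the dye orientation moved it little. The mean was -1.18 without pair 1, -1.04 without pair 2 and -0.78 without pair 3.

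Mfap5 and Mfap2 encode the paired microfibril-associated glycoproteins MAGP-2 and MAGP-1, small proteins that bind fibrillin. Mfap5 had -0.27, -0.037 and -0.17 with LynDN in Cy3 and -0.12, -0.055 and 0.0069 with LynDN in Cy5 in pairs 1, 2 and 3. It was slightly negative on 5 of 6 arrays, with a mean of -0.11 ± 0.079 (SD, n = 3). Mfap2 had 0.11, 0.36 and -0.042 with LynDN in Cy3 and -0.21, -0.21 and 0.030 with LynDN in Cy5. The sign of Mfap2 changed with the dye within each pair, and the mean of 0.0045 ± 0.063 (SD, n = 3) lay within its spread of 0. Mfap5 thus differed by 1.08-fold, against 1.999-fold for Mfap4.

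Of the 3 fibulins, glycoproteins that bridge elastin, microfibrils and basement membranes, only Fbln1 kept 1 sign on all 6 arrays. Fbln1, whose product binds fibronectin and elastin, had 0.29, 0.27 and 0.11 in pairs 1, 2 and 3 with LynDN in Cy3 and 0.0036, 0.56 and 0.45 with LynDN in Cy5. It was positive on 6 of 6 arrays, although 1 array of pair 1 was close to 0, and its mean was 0.28 ± 0.13 (SD, n = 3), a 1.21-fold difference and rank 905 from the highest row. Fbln5, whose product brings tropoelastin to microfibrils and whose loss in mice gives loose skin, had 0.0005, 0.0545 and 0.16 with LynDN in Cy3 and -0.023, 0.24 and -0.35 with LynDN in Cy5. These values lay on both sides of 0, and the mean was 0.014 ± 0.12 (SD, n = 3). Fbln2 had -0.44, -0.42 and -0.38 with LynDN in Cy3 and -0.0215, 1.01 and 0.027 with LynDN in Cy5, so that the 2 sets of arrays did not overlap. With LynDN in Cy5 only pair 2 lay far from 0. The average of -0.039 ± 0.29 (SD, n = 3) fell between the sets, next to pairs 1 and 3 with LynDN in Cy5.

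For the fibulins, the 250 bases before the transcription start of each are shown, from RefSeq on GRCm38.p6. Of the 9 genes, 4 had an entry in the promoter table, these fibulins and Mfap2. Capitals mark matches, on either strand, to 5 short motifs. The TATA box was searched as the letters TATAAA. For the GC box the search used GGGCGG, and for the CCAAT box it used the letters of its name. AP-1 was searched with the letters TGACTCA, and the SMAD core with CAGAC. Where a gene had 2 windows, the first listed was used.
Fbln1 (chr15:85205699-85205948, plus strand): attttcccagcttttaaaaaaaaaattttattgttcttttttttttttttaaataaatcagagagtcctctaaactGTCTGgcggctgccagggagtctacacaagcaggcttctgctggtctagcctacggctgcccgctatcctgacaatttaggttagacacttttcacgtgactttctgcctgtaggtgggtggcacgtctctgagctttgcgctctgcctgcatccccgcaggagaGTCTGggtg
Fbln2 (chr6:91212514-91212763, plus strand): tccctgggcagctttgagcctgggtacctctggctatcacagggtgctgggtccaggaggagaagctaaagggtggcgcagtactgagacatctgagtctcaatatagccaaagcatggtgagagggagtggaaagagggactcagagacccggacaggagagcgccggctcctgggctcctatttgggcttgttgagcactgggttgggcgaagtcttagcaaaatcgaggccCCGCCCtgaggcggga
Fbln5 (chr12:101819120-101819369, minus strand): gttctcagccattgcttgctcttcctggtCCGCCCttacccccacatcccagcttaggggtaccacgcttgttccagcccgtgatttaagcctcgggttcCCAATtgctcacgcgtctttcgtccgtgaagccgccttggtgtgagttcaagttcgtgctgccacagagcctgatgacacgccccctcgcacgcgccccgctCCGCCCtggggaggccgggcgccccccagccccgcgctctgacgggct

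The Fbln1 window held 2 matches to the SMAD core, both on the reverse strand, and none of the other letters. The Fbln2 window held 1 GC box match, and the Fbln5 window held 2 GC box matches and 1 CCAAT match. No matches overlapped. Such matches are common: of 32851 windows of this length, 42.2% held the SMAD core, 32.7% the GC box, 33.8% the CCAAT letters, 12.4% the TATA box and 4.5% the AP-1 letters. They describe these windows only.

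Fn1 encodes fibronectin, which forms the fibrils on which fibrillin is first laid down. It had -0.11, -0.14 and -0.38 in pairs 1, 2 and 3 with LynDN in Cy3 and -0.77, -0.38 and -0.52 with LynDN in Cy5. All 6 values were negative, and those with LynDN in Cy5 were the lower ones in each pair. The mean was -0.38 ± 0.11 (SD, n = 3), a 1.30-fold difference and rank 320 from the lowest, with -0.35 without pair 1.

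Set in order, the mean log2 ratios ran from Mfap4 through Fn1, Eln, Fbn2, Mfap5, Fbln2, Mfap2 and Fbln5 to Fbln1. Only the gaps at both ends were wider than the larger SD of the neighbours: 0.62 between Mfap4 and Fn1, and 0.27 between Fbln5 and Fbln1, each in the same order in 3 of 3 pairs. The 6 gaps between the 7 genes in the middle, of 0.0090 to 0.11, were smaller than the SDs. Of the 9 genes, 3 were negative and 1 positive on all 6 arrays, as were 4.31% and 3.72% of all rows.

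The limma fit over all rows, on the 3 pair values, with Benjamini-Hochberg adjustment and a threshold of 0.05, called 0 of the 9 genes, where 0.0175% of all rows were called (4 of 22879). At an unadjusted p under 0.05 lay 4 of the 9, and 12.3% of all rows. In a fit of all 6 arrays with mouse pair as a random block and a dye term, 1 of the 9 was called, the negative Mfap4, where 0.459% of rows were called negative. With pairs 2 and 3 only, Mfap4 was again the 1 gene called, where 1.67% of rows were called negative. These counts come from the contrast in which the genes were chosen, and nothing is read from them.

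The dye orientation is a contrast that the choice of genes did not use. For each row, the array with LynDN in Cy5 was subtracted from the array with LynDN in Cy3 within a pair, and limma tested the 3 differences against 0. Of all rows, 0.573% were called, and 0 of the 9 genes were. At an unadjusted p under 0.05 lay 2 of the 9, close to the 21.4% of all rows. Fbln2 had differences of -0.42, -1.43 and -0.41 in pairs 1, 2 and 3, a mean of -0.75 ± 0.59 (SD, n = 3; limma adjusted p = 0.135), and 1.6% of rows had a larger mean difference. Fn1 had a mean difference of 0.35 ± 0.27 (SD, n = 3; limma adjusted p = 0.202), positive in 3 of 3 pairs. For Eln it was 0.24 ± 0.16 (SD, n = 3; limma adjusted p = 0.262), also positive in 3 of 3 pairs. Mfap4, with -0.098 ± 0.24, and Fbn2, with -0.024 ± 0.035 (SD, n = 3), had differences of both signs among the pairs.

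**Figure D2:**
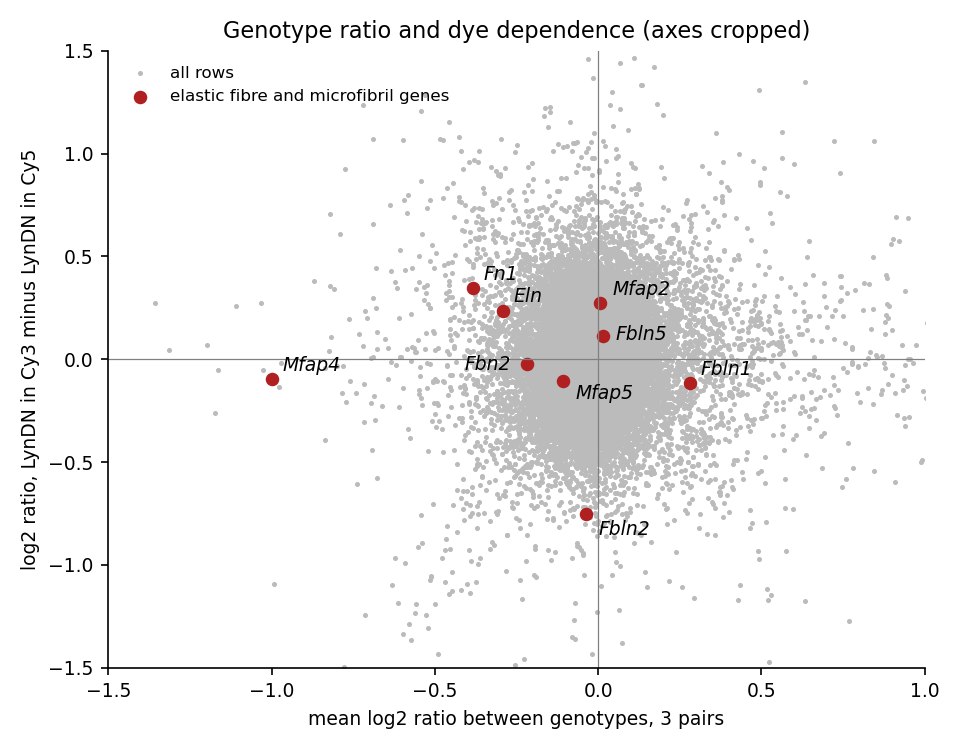
Mean log2 ratio between genotypes over 3 pairs (horizontal axis) against the mean difference between arrays with LynDN in Cy3 and arrays with LynDN in Cy5 (vertical axis), for all rows in grey and the 9 elastic fibre and microfibril genes in red. Fbln2 lies low on the dye axis at -0.75, and Mfap4 lies far left at -0.999 with little dye dependence; 159 rows fall outside the axes shown.

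Genes that work with elastic fibres were taken from 10 lists covering 76 genes, of which 69 were measured. On the pair values limma called 0 of 69, with 6 positive and 7 negative genes at an unadjusted p under 0.05, where 5.92% of all rows were positive and 6.41% negative at that p. Their median log2 ratio was -0.02, beside -0.01 for all rows. With mouse pair as a random block, 1 was called, the positive Slpi (limma adjusted p = 0.0251), where 0.603% of rows were called positive. With pairs 2 and 3 only, 7 of 69 were called, all positive, where 3.22% of rows were called positive: the proteases Ctsl, Ctss, Elane and Mmp9, the inhibitor Slpi, and the matrix proteins Tgfbi and Tnc.

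**Figure D3:**
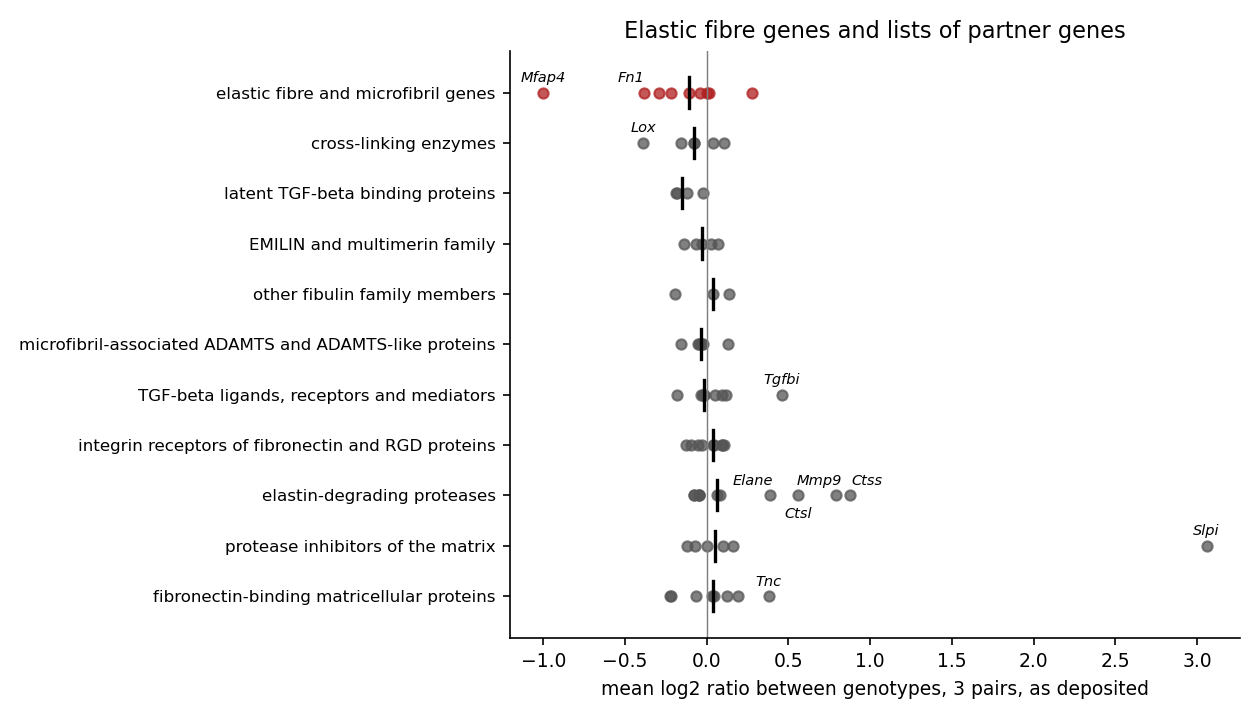
Mean log2 ratio between genotypes over 3 pairs (horizontal axis) for each measured gene of the 10 lists of partner genes (grey) and for the 9 elastic fibre and microfibril genes (red), 1 list per line, with the median as a black bar. Most list medians lie within 0.1 of 0, whereas Mfap4 at -0.999 and Slpi at 3.06 lie farthest out.

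Of the 6 cross-linking enzymes 0 were called; 4 had a negative mean, as did 56.1% of all rows, and the median log2 ratio was -0.08. Lox, the lysyl oxidase that cross-links elastin and collagen, had -0.32, -0.23 and -0.61 in pairs 1, 2 and 3, a mean of -0.39 ± 0.20 (SD, n = 3; limma adjusted p = 0.278). Its mean was -0.55 with LynDN in Cy3 and -0.22 with LynDN in Cy5. Tgm2, a transglutaminase of the matrix, had -0.16 ± 0.029 (SD, n = 3; limma adjusted p = 0.346), while its dye difference was 0.41. Loxl1, the enzyme tied to elastic fibre upkeep in mice, had -0.08 ± 0.10 (SD, n = 3).

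Binding partners of the microfibril had small ratios. The counts of negative means that follow stand beside 56.1% of all rows with a negative mean. All 4 latent TGF-beta binding proteins, which anchor latent TGF-beta to fibrillin, had negative means, with a median of -0.15, and Ltbp3 and Ltbp4 had -0.18 ± 0.15 and -0.18 ± 0.23 (SD, n = 3), with limma adjusted p = 0.416 and 0.517. Ltbp4 was at 0.075 in pair 1. Of 5 EMILIN and multimerin genes 3 were negative, with a median of -0.03; the elastin-interface protein gene Emilin1 had -0.14 ± 0.24 and Mmrn2 had 0.068 ± 0.13 (SD, n = 3; limma adjusted p = 0.610 and 0.723). Among 3 other fibulin family members Efemp1, which encodes fibulin-3, had -0.16, -0.25 and -0.17 in pairs 1, 2 and 3 and a mean of -0.19 ± 0.049 (SD, n = 3; limma adjusted p = 0.307), while Fbln7 had 0.14 ± 0.16 (limma adjusted p = 0.521). Of 7 ADAMTS and ADAMTS-like genes 6 were negative, with a median of -0.03, and Adamtsl1 had -0.16 ± 0.10 and Adamts6 0.13 ± 0.084 (SD, n = 3; limma adjusted p = 0.403 and 0.442).

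The medians of signalling and receptor genes lay close to 0, although Tgfbi did not. The mean log2 ratio of Tgfbi was 0.46 ± 0.58 (SD, n = 3), rank 419 from the highest row. The 10 TGF-beta ligands, receptors and mediators had a median of -0.02, with Tgfb2 at -0.18 ± 0.13 (SD, n = 3; limma adjusted p = 0.391) and Tgfbi, a TGF-beta-induced adhesion protein, at -0.18, 0.60 and 0.96 in pairs 1, 2 and 3 (limma adjusted p = 0.477). The 9 integrin genes, whose products bind fibronectin and other proteins with an RGD sequence, had a median of 0.04 and lay between -0.13 and 0.10. Itga8 and Itgb5 had the smallest p there, with 0.10 ± 0.030 and -0.13 ± 0.11 (SD, n = 3; limma adjusted p = 0.477 and 0.484).

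Of 11 proteases that cut elastin 6 had a positive mean and 5 a negative one, with a median of 0.06. Of all rows, 43.9% had a positive mean. Elane, the neutrophil elastase gene, had 0.21, 0.52 and 0.43 in pairs 1, 2 and 3 (mean 0.39 ± 0.16; SD, n = 3; limma adjusted p = 0.273). Its mean was 0.65 with LynDN in Cy3 and 0.12 with LynDN in Cy5. Ctsl had 0.12, 0.72 and 0.84 (limma adjusted p = 0.307). Mmp9 and the macrophage cathepsin gene Ctss were at -0.051 and -0.055 in pair 1; pair 2 had 1.36 and 1.03, and pair 3 had 1.07 and 1.66. The macrophage elastase gene Mmp12 had 0.08 ± 0.006 (SD, n = 3), with limma adjusted p = 0.556, and Mmp2 had -0.05 ± 0.26. That average of Mmp2 joins positive values on all arrays with LynDN in Cy3 (mean 0.29) and negative ones with LynDN in Cy5 (mean -0.38). Its dye difference was 0.67 ± 0.061 (SD, n = 3), with limma adjusted p = 0.0523. The small SD of Mmp12 is that of pair averages, and its single arrays ran from -0.14 to 0.31.

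Of the 6 protease inhibitors, 4 were positive, with a median of 0.05, where 43.9% of all rows had a positive mean. Slpi, an inhibitor of neutrophil elastase made by stressed keratinocytes, had 1.59, 3.42 and 4.18 in pairs 1, 2 and 3 (mean 3.06 ± 1.33; SD, n = 3; limma adjusted p = 0.244). Timp1 had 0.16 ± 0.12 (SD, n = 3; limma adjusted p = 0.416), with means of 0.37 with LynDN in Cy3 and -0.045 with LynDN in Cy5. Timp2, an inhibitor of matrix metalloproteinases, was the 1 partner gene of 69 whose dye difference was called (0.82 ± 0.11; SD, n = 3; limma adjusted p = 0.0399), where 0.573% of all rows were called. The dye difference had an unadjusted p under 0.05 in 16 of the 69, and in 21.4% of all rows. Among the partner genes named in the text these were Lox, Tgm2, Emilin1, Efemp1, Mmp2, Elane, Ctsl, Timp1, Timp2 and Sparc. Their averages over both orientations do not show that difference. Of the 8 matricellular genes 5 were positive, with a median of 0.04: Tnc, a matrix glycoprotein of wounds that modulates adhesion to fibronectin, had 0.12, 0.48 and 0.53 in pairs 1, 2 and 3 (limma adjusted p = 0.293), and Sparc had -0.10, -0.18 and -0.38 (limma adjusted p = 0.359).

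Markers of dermal fibroblasts, the cells that make most of the genes described here, had a median log2 ratio of -0.10 over 11 genes, 8 of them negative. Of all rows, 56.1% had a negative mean. By pair their median was -0.265, -0.03 and -0.22 in pairs 1, 2 and 3, beside -0.20, 0.032 and -0.18 for the elastic fibre and microfibril genes. By median, both lists were thus lowest in pair 1, by little for the elastic fibre genes, and nearest 0 in pair 2. Single genes differed: Mfap4, Fn1, Eln, Col1a1 and Col5a1 were lowest in pair 3, and Mfap5, Fbln1, Dcn and Lum in pair 1. Fibroblast markers lay between -0.35 for Col5a1 and 0.19 for Pdgfra, and limma called 0 of 11 on the pair values, with 4 negative genes and 0 positive at an unadjusted p under 0.05, where 6.41% of all rows were negative and 5.92% positive at that p. Their part in the ratios of the elastic fibre genes was not tested.

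Other cell types followed other patterns across pairs. Macrophage and monocyte markers (6 genes) had medians of -0.07, 0.42 and 0.57 in pairs 1, 2 and 3, adipocyte markers (6 genes) 0.09, -0.44 and -0.17, and skeletal muscle markers (7 genes) -0.01, -0.20 and -0.68. Red blood cell markers (4 genes) had -0.04, -1.07 and -0.32, and keratinocyte markers (7 genes) 0.045, 0.23 and 0.28. The keratinocyte genes had ratios of both signs: the differentiation genes Krt10, Krt1 and Ivl had means of -1.77 ± 1.24, -0.64 ± 0.61 and -0.39 ± 0.17, and the basal keratin genes Krt14 and Krt5 had 1.34 ± 0.54 and 0.34 ± 0.26 (SD, n = 3). Medians over all 3 pairs were -0.04 for 8 smooth muscle and pericyte markers and 0.02 for 7 endothelial markers. The order of the pairs for the skeletal muscle median, with pair 3 lowest and pair 1 nearest 0, was that of Mfap4. It was not particular to muscle: Eln, Krt10, Krt1 and the median of the latent TGF-beta binding proteins had it too. Within the muscle list, Myl1 was lowest in pair 2. Of all 56 measured markers, fibroblast ones included, 0 were called on the pair values, where 0.0175% of all rows were called. With mouse pair as a random block 1 was called, the positive Krt14, where 0.603% of all rows were called positive. With pairs 2 and 3 only, 12 were called, where 3.22% of all rows were called positive and 1.67% negative. Adgre1, Cd14, Lyz2, Mrc1 and Krt14 were positive, and Fabp4, Lep, Myl1, Tnnt3, Hba-a1, Krt1 and Krt10 were negative. The part of muscle, fat or blood in the sampled skin was not tested as a source of these ratios.

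**Figure D4:**
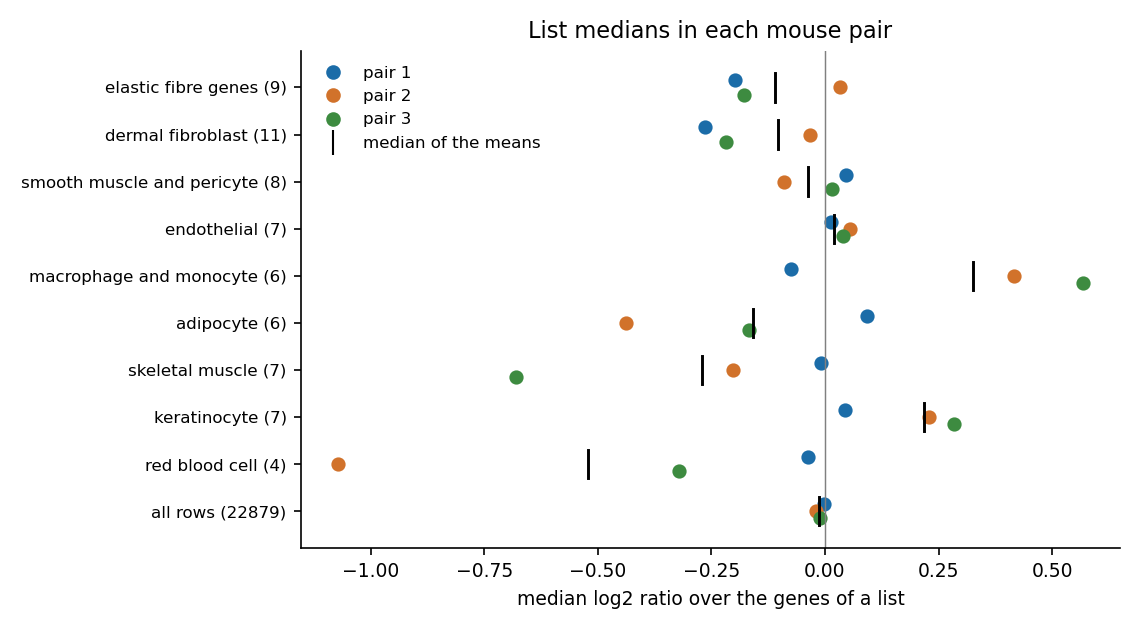
Median log2 ratio (horizontal axis) of the 9 elastic fibre and microfibril genes, of 8 lists of cell type markers and of all rows, in each of the 3 mouse pairs (coloured points), with the median of the means over pairs as a black bar and the number of genes in parentheses. The elastic fibre genes and the fibroblast markers are both near 0 in pair 2 and near -0.2 in pairs 1 and 3.

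The named genes outside the list whose 6 array values were closest to those of Eln, by root mean square difference, were Cd248 (0.049), Pak3 (0.073), Vdac3 (0.092), H2bc4 (0.095) and Nbl1 (0.10). Cd248 encodes endosialin, a surface protein of fibroblasts and pericytes, and had -0.054, -0.0069 and -0.35 with LynDN in Cy3 and -0.13, -0.40 and -0.63 with LynDN in Cy5. Within the list Fn1 was nearest to Eln at 0.24, with 689 other named genes closer, and Mfap4 was farthest at 0.76.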

How the data were processed

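Per the labels' protocols, total RNA from skin was extracted with Qiagen and labelled with Ambion reagents. The deposited values are log2 ratios, 1 per probe and array, whose base (2 assumed), numerator, centring and upstream steps no source used here states. Probes numbered after 21000 are rounded to at most 3 significant digits (100.0% of them), among them those of Eln, Fbln1, Mfap2 and Mfap5. Spot intensities were not used, so background and saturation could not be examined, and the number of arrays limits the precision.

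Members and lists were chosen with earlier results of these data known. Of 25344 probes, 21082 had 1 symbol in the platform annotation, 30 several and 4232 none. Probes of 1 symbol were averaged per array, and the others stayed as rows, which gave 22879. The mice of a pair, from the labels, are the same on both of its arrays, which were averaged. Means of the 3 pair values were tested against 0 by limma (version 3.58.1, run under R 4.3.3; lmFit and eBayes, prior of 2.96 degrees of freedom; 4.13 for dye differences), with Benjamini-Hochberg adjustment over all rows; the pair as a random block had a consensus correlation of 0.151. SDs are over pair values and leave out the differences between dye-swapped arrays. On simulated pair values of 22879 rows, 99.1% of 200 rows changed by 2 on the log2 scale were recovered, and 4.8% of calls were false. All 9 genes had smaller ratios than that, and the simulated spread did not grow with the change. Slpi, at 3.06 ± 1.33 (SD, n = 3), was not called on the real pair values. The simulation therefore gives no recovery rate for the genes described here. All members were named; of each partner list, genes past the threshold or, with none, the 2 with the smallest p, and the 5 named genes closest to Eln. Loxl1, Ctss, Mmp2, Mmp9, Mmp12, Timp2 and the marker genes were named after their values were seen. Alternatives were the block, scaling, probe summaries, single dye orientations, leaving out a pair and no variance moderation. Plots used matplotlib (3.10.9) and Python (3.11.15).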

Additional observations from a re-analysis of the deposited data

Results flagged for a closer look

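Timp2, which encodes an inhibitor of matrix metalloproteinases, had opposite signs on the 2 sets of arrays. Its log2 ratio was 0.40, 0.34 and 0.13 in pairs 1, 2 and 3 with LynDN in Cy3 and -0.51, -0.51 and -0.57 with LynDN in Cy5, so that the sets did not overlap. The difference of 0.82 ± 0.11 (SD, n = 3) passed the limma test of the dye contrast (adjusted p = 0.0399), as did 0.573% of all rows. Without variance moderation 0 rows passed it, and after quantile normalization 6 rows did. Whether Timp2 was among those 6 is not shown here. The average over both orientations was -0.12 ± 0.084.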

How the results depend on the processing

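Of 72 recomputed gene values (9 genes under 8 alternatives each), 64 kept their sign and 66 stayed within 1 SD of the reported value. Many of the 72 could not leave that range, so the count of 66 is no measure of robustness. The median of 1 or 2 probes equals their mean, and leaving out 1 of 3 pairs cannot move a mean by 1 SD. All values outside 1 SD were those of Fbln2, Mfap2 and Fn1 in the single dye orientations. Mfap4 (-1.18 to -0.78), Fn1 (-0.56 to -0.21), Eln (-0.41 to -0.17), Fbn2 (-0.34 to -0.155), Mfap5 (-0.16 to -0.057) and Fbln1 (0.21 to 0.35) kept their sign under all 8, whereas Fbln2 (-0.42 to 0.34), Mfap2 (-0.13 to 0.14) and Fbln5 (-0.053 to 0.07) did not. The median of the 9 genes ranged from -0.204 to -0.064 when 1 pair was left out. The count of rows called between genotypes, 4, was 243 with the replicate block (138 positive, 105 negative), 79 after quantile normalization (59 positive, 20 negative), 54 with LynDN in Cy3 only, 24 with LynDN in Cy5 only and 0 without variance moderation (1752 at an unadjusted p under 0.05). It ranged from 2 to 1117 when 1 pair was left out, with 1117 without pair 1 and 2 without pair 2. Partner genes called, 0 on the pair values, were 1 with the replicate block and 1 after quantile normalization, Slpi in both, and ranged from 0 to 7 when 1 pair was left out, with 7 without pair 1. Rows called for dye orientation, 131, were 6 after quantile normalization, 0 without variance moderation (3253 at an unadjusted p under 0.05) and ranged from 7 to 49 when 1 pair was left out: 7 without pair 1, 21 without pair 2 and 49 without pair 3. Fewer pairs enter these last fits; the cause of the other shifts was not tested.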
